A study of Mus musculus with 9 samples.

Results

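Gm43960 and Grip2 are a pair of mouse chromosome 6 genes whose counts were very high in some colon libraries and near 0 in others. They were chosen by symbol because their counts had been seen to split in this way, and they are 2 of 22262 counted genes and 2 of the 17441 that passed the filter on low counts. Their own levels are therefore given as a description, without a test. The questions asked of the data are which libraries carried each transcript, whether both genes split the libraries alike, and whether neighbouring genes on chromosome 6, or genes that share sequence with them, followed the same split.

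RNA came from a piece of the upper colon of 9 female wild-type C57BL/6N mice, aged 12 months, rinsed free of feces and frozen. The 4 mice of WT_SE (numbers 1, 2, 3 and 5) lived in the standard environment and the 5 mice of WT_EE (numbers 1 to 5) in the enriched environment, with larger cages, more mice per cage, running wheels and changing objects, from weaning onward. No mouse carried a transgene or received an agent, and each library was made from 1 mouse. Sequencing was of the 3′ kind (QuantSeq), which reads each polyadenylated RNA next to a stretch of A, and a unique molecular identifier let copies of a molecule be counted once.

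Library totals were 383401, 356704, 299062 and 368997 molecules in WT_SE mice 1, 2, 3 and 5. They were 454043, 295535, 444520, 336967 and 426436 in WT_EE mice 1 to 5. A floor of 3 counts was used as the limit of detection, which corresponds to between 6.61 and 10.2 CPM (counts scaled to a common library total), and it covers counting error only. The library names of WT_SE mice 1 and 3 end in L3 and the names of the others in L2, with no L3 library in WT_EE. What the ending stands for is not given in the labels.

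Grip2 encodes a scaffold protein with several PDZ domains, which binds the tails of AMPA-type glutamate receptors and of ephrins and helps to hold them at the cell membrane. Its relative Grip1 has the same kind of domains and many of the same partners. A processed pseudogene such as Gm43960 is a copy of an RNA that was turned back into DNA and inserted elsewhere in the genome, usually without the promoter of its parent. In mammals this copying is carried out by the enzymes of LINE-1 elements, an abundant family of repeats whose own RNAs end in a poly(A) tail.

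Gm43960 (ENSMUSG00000108249) is annotated in GENCODE release M21 as a processed pseudogene of 5020 bases without introns, at chr6:10804828-10809847 on the plus strand of GRCm38. Its bases are 42.3% A and 36.5% G or C. A total of 4 stretches of at least 8 A in a row lie inside it, of 8, 9, 12 and 51 bases, and the longest begins at base 2563 and ends at base 2613, near the middle of the gene. The first and last 100 bases are shown because they mark the limits of the annotated span, at chr6:10804828-10804927 and chr6:10809748-10809847. Sequence outside the span was not examined, so the ends of a copied RNA are not known from it. The stretch at chr6:10807330-10807500 is shown because 3′ libraries start from runs of A, and its capitals mark the run of 51 A with 60 bases on each side. All are on the plus strand of GRCm38, and the last 100 bases hold no run of at least 8 A. Where on the gene the counted reads fell was not analysed here.
Gm43960, first 100 bases: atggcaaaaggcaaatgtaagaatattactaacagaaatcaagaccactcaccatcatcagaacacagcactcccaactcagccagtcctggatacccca
Gm43960, longest A run with 60 bases on each side: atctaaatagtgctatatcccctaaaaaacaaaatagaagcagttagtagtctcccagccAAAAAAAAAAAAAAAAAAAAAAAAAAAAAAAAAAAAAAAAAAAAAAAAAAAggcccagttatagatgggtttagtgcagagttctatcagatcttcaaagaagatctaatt
Gm43960, last 100 bases: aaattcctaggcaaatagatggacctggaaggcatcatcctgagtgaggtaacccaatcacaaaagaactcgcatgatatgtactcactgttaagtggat

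Grip2 (ENSMUSG00000030098) is a protein-coding gene at chr6:91761509-91827250 on the minus strand of GRCm38, 65742 bases long with 6 annotated transcripts. The promoter window of Grip2 in RefSeq, 300 bases on the minus strand of GRCm38.p6 at chr6:91807344-91807643, is shown because the gene was on in some libraries and off in others. It lies inside the GENCODE span, whose outermost transcript starts farther upstream. Of its bases 64.3% were G or C, against a median of 52.7% over 32851 promoter windows. Both strands were searched for the letters TATAAA, the letters CCGCCC and the letters CCAAT, which do not overlap each other. TATAAA and CCAAT were not found in the window, and 13.6% and 37.4% of all windows hold them. CCGCCC occurred at 1 place, on the opposite strand as GGGCGG, which the capitals mark, and 35.7% of all windows hold it. These matches describe letters and show no site in use.
Grip2 promoter window: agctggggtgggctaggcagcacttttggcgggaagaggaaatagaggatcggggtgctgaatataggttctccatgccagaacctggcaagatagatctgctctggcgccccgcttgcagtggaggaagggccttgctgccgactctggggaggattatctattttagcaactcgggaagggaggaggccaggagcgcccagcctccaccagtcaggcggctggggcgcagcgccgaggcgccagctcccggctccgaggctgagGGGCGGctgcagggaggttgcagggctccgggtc

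Gm43960 had 384 counts in WT_SE mouse 2, and 3, 5 and 3 in WT_SE mice 1, 3 and 5. In WT_EE it had 471, 494, 441 and 415 counts in mice 1, 2, 4 and 5, and 2 in mouse 3. The gene was thus high in 1 of 4 WT_SE and 4 of 5 WT_EE libraries, so that both states occurred in both environments and the groups overlapped. In CPM after TMM normalization the high libraries were at 1722 (WT_EE 2), 1364 (WT_EE 4), 1069 (WT_SE 2), 1017 (WT_EE 1) and 960 (WT_EE 5). The others were at 16.9 (WT_SE 3), 8.20 (WT_SE 5), 7.83 (WT_SE 1) and 4.37 (WT_EE 3), at or close to the floor, where the order is not read. With a single library per mouse, the order among the 5 high libraries cannot be set against a spread within a mouse. In such tissue RNA, fewer cells of a type and less RNA per cell cannot be told apart.

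**Figure D1:**
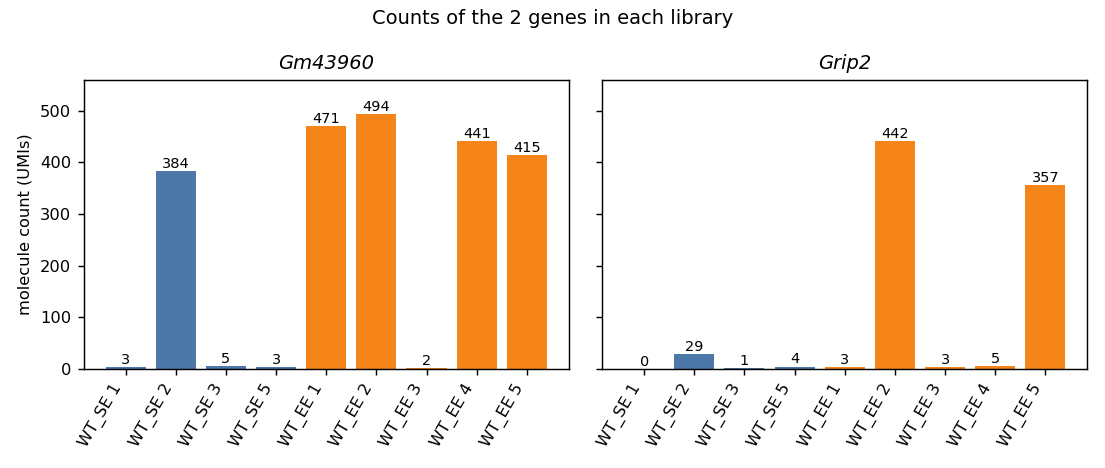
Molecule counts of Gm43960 and Grip2 in each of the 9 libraries, with 1 bar per mouse, WT_SE in blue and WT_EE in orange. Gm43960 had 384 to 494 counts in 5 libraries and 2 to 5 in the others, and Grip2 had 442 and 357 counts in WT_EE 2 and 5, 29 in WT_SE 2 and 0 to 5 elsewhere.

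Where it was high, Gm43960 was among the most counted genes of the colon. It ranked number 2 in WT_EE 2, 4 and 5, number 3 in WT_EE 1 and number 4 in WT_SE 2, while Gm42418 ranked first in all 9 libraries with 1177 to 1393 counts. The same gene ranked 9246, 11492, 11641 and 13179 in WT_SE 3, WT_SE 5, WT_SE 1 and WT_EE 3. It was first of the 1411 counted processed pseudogenes in its 5 high libraries, in which the next one had 93 to 126 counts, and between 122 and 208 in rank in the rest. The next ones were Gm4997, Gm8960, Gm5781 and Rpl14-ps1.

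Grip2 had 442 counts in WT_EE mouse 2 and 357 in WT_EE mouse 5, and 3, 3 and 5 in WT_EE mice 1, 3 and 4. In WT_SE it had 29 counts in mouse 2 and 0, 1 and 4 in mice 1, 3 and 5. The 0 in WT_SE 1 allows a level of up to 7.82 CPM. In CPM the order was 1541 (WT_EE 2), 826 (WT_EE 5), 80.8 (WT_SE 2), then 15.5, 10.9, 6.56, 6.48, 3.38 and 0 (WT_EE 4, WT_SE 5, WT_EE 3, WT_EE 1, WT_SE 3 and WT_SE 1). Grip2 was therefore not strictly all or none: WT_SE 2 lay between the 2 highest libraries and the 6 lowest. It ranked number 3 among all genes in WT_EE 2 and number 5 in WT_EE 5, and number 4100 in WT_SE 2.

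The mean level of Gm43960 was 276 ± 529 CPM in WT_SE (SD, n = 4) and 1013 ± 641 CPM in WT_EE (SD, n = 5), a fitted log2 fold change of 1.85. That of Grip2 was 23.8 ± 38.3 CPM in WT_SE (SD, n = 4) and 479 ± 691 CPM in WT_EE (SD, n = 5), a log2 fold change of 4.23. For both genes the spread within a group was as large as or larger than its mean in at least 1 group, and the groups overlapped. Single mice moved both values: without WT_SE 2 the log2 fold change was 6.52 for Gm43960 and 6.48 for Grip2, and without WT_EE 2 it was 3.14 for Grip2. With the library name ending as a further term it was 0.90 for Gm43960 and 3.33 for Grip2. Both L3 libraries were low for both genes, and so were WT_SE 5 and WT_EE 3, whose names end in L2, so the low state was also present among L2 libraries.

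Counting a library as on above the floor gave 6 on libraries for Gm43960 and 5 for Grip2, because counts of 4 and 5 then pass. By that limit both genes were on in 4 libraries (WT_SE 2 and WT_EE 2, 4 and 5), Gm43960 alone in WT_SE 3 and WT_EE 1, and Grip2 alone in WT_SE 5, with 4 counts against 3. At 10 or more counts, a limit chosen after the values were seen, Gm43960 was on in 5 libraries and Grip2 in 3, and each gene has no library between 5 counts and its lowest on library. At this higher limit all 3 libraries on for Grip2 (WT_SE 2, WT_EE 2 and WT_EE 5) were on for Gm43960. WT_EE 1 and WT_EE 4 were on for Gm43960 and not for Grip2, with 471 and 441 counts of the first and 3 and 5 of the second. The genes lie on different parts of chromosome 6, neither overlaps another annotated gene, and the longest run of bases that Gm43960 shares with any Grip2 transcript is 17. A search for longer similar stretches found 0 matches between them.

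**Figure D2:**
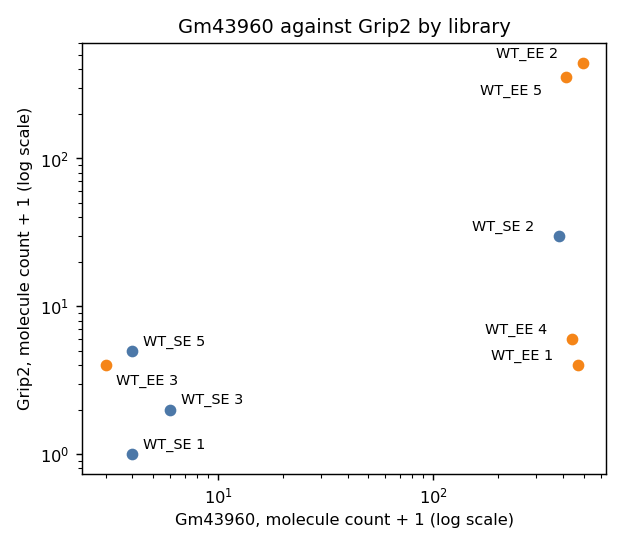
Counts plus 1 of Gm43960 (horizontal, log scale) and Grip2 (vertical, log scale), with 1 point per library, WT_SE in blue and WT_EE in orange. WT_EE 2 and WT_EE 5 are high for both genes, WT_SE 2 is lower for Grip2, WT_EE 1 and WT_EE 4 are high for Gm43960 alone, and the other 4 libraries are low for both.

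Library depth was set beside the states as a description, and its part in them was not tested. The deepest library (WT_EE 1, 454043 molecules) and the shallowest (WT_EE 2, 295535) were both on for Gm43960, and the second deepest (WT_EE 3, 444520) was off. Grip2 had 3, 442 and 3 counts in WT_EE 1, WT_EE 2 and WT_EE 3. Libraries that were most alike over the whole transcriptome differed in 1 of the members and were alike in the other. The scaled squared difference between the counts of a pair of libraries, which is near 1 when they differ by counting error alone, ran from 1.17 to 2.30 over all pairs within a group. The lowest values were 1.17 for WT_EE 1 with WT_EE 3, which had 471 and 2 counts of Gm43960 and 3 and 3 of Grip2, and 1.17 for WT_EE 2 with WT_EE 4, which had 442 and 5 counts of Grip2 and 494 and 441 of Gm43960.

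Some genes marked another division of the libraries, and the members did not follow it. Slc10a2, which encodes the bile acid transporter of the ileum, had 103, 110, 107 and 117 counts in WT_SE 2, WT_SE 3, WT_EE 1 and WT_EE 3, and 26, 16, 3, 4 and 10 in WT_SE 1, WT_SE 5, WT_EE 2, WT_EE 4 and WT_EE 5. The transcription factor gene Osr2 was at 93, 81, 84 and 89 counts in the first 4 of these libraries and at 7 or fewer in the others. Hoxb13, the last gene of the Hoxb cluster and a marker of the hind end of the body, was at 0 in WT_SE 2, WT_SE 3 and WT_EE 1 and at 56 in WT_SE 5, with 21 in WT_EE 3, 4 in WT_SE 1, and 45, 24 and 20 in WT_EE 2, 4 and 5. Hoxb13 thus split the libraries in part otherwise than Slc10a2 and Osr2, since WT_SE 1 was low and WT_EE 3 was not. Each side of the division by Slc10a2 and Osr2 held libraries on and off for Gm43960 and for Grip2. These genes were chosen after their values were seen.

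The neighbourhood of Gm43960 was nearly silent in these libraries. The annotation places 8 other genes within 1 Mb of it, and 0 of them had a count in any library, so that no neighbour at that distance could be compared. The 10 nearest tested genes on each side lay between 1.09 and 4.09 Mb away. Closest were Ndufa4, a subunit linked to respiratory complex IV, with 42 to 79 counts, and Phf14, a chromatin protein, with 57 to 91 counts. On the other side the nearest genes were Nxph1 with 0 to 2 counts, Ica1 with 10 to 25 (rho -0.52) and Glcci1 with 2 to 14. Farther out on that side were Mios with 1 to 14 counts (rho -0.47) and C1galt1, the enzyme that builds the core 1 sugar of mucins, with 55 to 99.

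Of the 20 genes nearest to Gm43960, 0 parted the libraries, meaning higher or lower in CPM in every library with at least 10 counts of Gm43960 than in every other library. Over all tested genes, 304 of 17440 did so (1.74%), and 178 were higher in the on libraries (1.02%). For the 10 nearby genes above the floor in all libraries, the highest CPM was at most 2.96 times the lowest. Their rank correlation with Gm43960 over the 9 libraries (Spearman's rho, a description without a test) ran from -0.52 to 0.45 over the 20 genes, with a median of 0.12. With on set at more than 3 counts, Rpa3, a subunit of the single-strand DNA binding complex, parted the libraries at 1 to 22 counts, as did 281 of 17440 genes (1.61%, with 0.763% higher in the on libraries). Rpa3 did so with 3 counts in WT_EE 2 against 4 in WT_EE 3, at or close to the floor, where the order is not read.

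Grip2 lies among more active genes. Of 48 other annotated genes within 1 Mb, 24 had a count and 21 were tested. Slc6a6, the taurine transporter, ends 0.00244 Mb from the 3′ end of Grip2 on the opposite strand and had 84 to 126 counts in all 9 libraries. It had 84 and 108 counts in WT_EE 2 and WT_EE 5, where Grip2 was highest. On the upstream side Ccdc174 had 26 to 46 counts and Nr2c2, a nuclear receptor, 45 to 71. Wnt7a and Trh, which also lie within 1 Mb, had no count.

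None of the tested genes around Grip2 parted its libraries within 1 Mb (0 of 21), nor did any of the 20 nearest, at either limit for on. Over all tested genes 263 of 17440 (1.51%) did at 10 or more counts and 302 (1.73%) at more than 3, with 0.843% and 0.774% higher in the on libraries. The 20 nearest genes lay between 0.00244 and 1.04 Mb away, and their rho with Grip2 ran from -0.62 to 0.55 with a median of 0.11. Within 5 Mb, 83 genes were tested, of which Anxa4 and Fam19a1 parted the libraries at 10 or more counts, 1 higher and 1 lower, and Rab7 at more than 3. On the whole of chromosome 6, with 932 tested genes besides the members, 10 were higher and 8 lower in every Grip2 library at 10 or more counts, and 9 were higher and 7 lower in every such Gm43960 library.

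**Figure D3:**
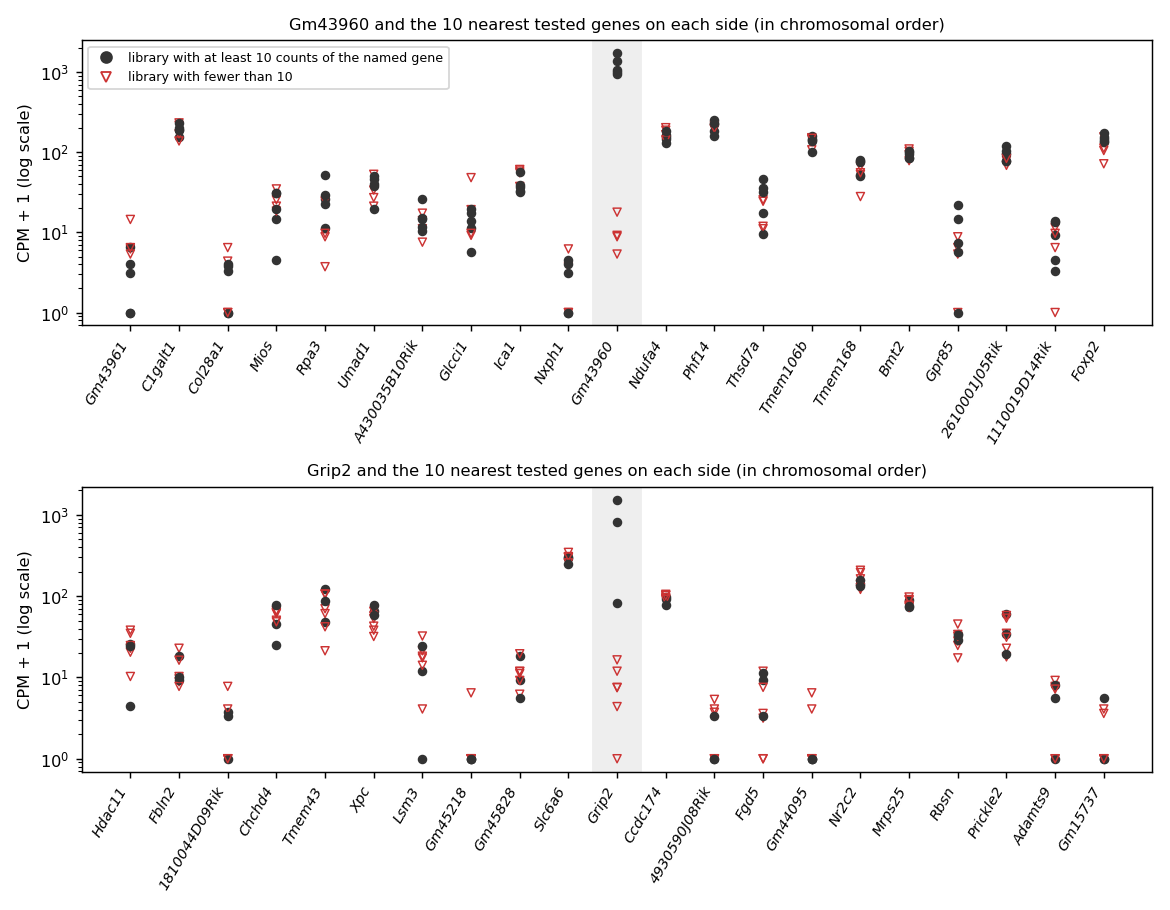
CPM plus 1 (log scale) of Gm43960, Grip2 and the 10 nearest tested genes on each side of them in chromosomal order, with 1 point per library, filled where the library had at least 10 counts of the shaded gene and open where it had fewer. Filled and open points are apart in the shaded column and overlap or tie in all 20 genes around each.

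The neighbours' difference between the environments was independent of how the members were chosen and was tested with edgeR over all genes. Of 17441 genes, 1334 (7.65%) had an unadjusted p under 0.05 and 7 (0.0401%) an adjusted p under 0.05. The adjusted count was 0 with DESeq2, with the newer quasi-likelihood form, with the library name ending as a term and without the L3 libraries, and 48 without WT_EE 1. Within 1 Mb of Grip2, 1 of 21 genes passed the unadjusted limit. It was Tmem43, which encodes a protein of the inner nuclear membrane, with 23, 17, 6 and 15 counts in WT_SE and 32, 35, 48, 34 and 37 in WT_EE. Every WT_EE library (69.1 to 122 CPM) was above every WT_SE library (20.3 to 60 CPM). The log2 fold change was 1.15 with a standard error of 0.25, and the adjusted p was 0.0527, which misses the limit. Tmem43 did not part the Grip2 libraries: it was as high in WT_EE 3 and WT_EE 4 (105 CPM each) as in WT_EE 5 (85.6 CPM).

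Within 5 Mb of Gm43960, 2 of 27 tested genes passed the unadjusted limit, beside 7.65% of all tested genes. The 2 genes were Foxp2, with higher values in WT_EE, and Glcci1, with lower values. Foxp2, a forkhead transcription factor, had a log2 fold change of 0.53 (SE 0.17) and an adjusted p of 0.321. Glcci1 had a log2 fold change of -0.99 (SE 0.48) and an adjusted p of 0.643. Neither parted the libraries of Gm43960. On chromosome 6 as a whole, 68 of 932 genes passed, 42 higher and 26 lower, beside 7.65% of all tested genes. After adjustment 0 of the chromosome 6 genes passed, and their median log2 fold change was 0.01, as it was over all tested genes. The unadjusted count over all genes fell to 643 with DESeq2 and to 680 without the L3 libraries.

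The annotation names no parent gene for Gm43960, so its sequence was compared with all annotated transcripts. Matches of at least 500 bases were found in 393 other genes, of which 72 are processed pseudogenes, with an identity of up to 93.2%. None of them could be singled out as a parent. The longest match was 5078 aligned positions in Kcnq1ot1, the long noncoding RNA of an imprinted domain, at 84.9% identity, and Kcnq1ot1 had 34 to 69 counts in all libraries. No repeat annotation was among the files, so no repeat family is assigned. How reads that match several places were counted is not stated, and the counts of Gm43960 and of its relatives are uncertain to that extent. This comparison and its limits were chosen after the data had been seen.

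Of the 393 genes, 137 were counted and 102 tested, and 0 of the 102 were higher in CPM in all libraries with at least 10 counts of Gm43960, beside 1.02% of all tested genes. D10Wsu102e, an antisense match over 3892 bases, was lower in CPM in all of them, though its counts overlapped. It had 20, 33, 9, 15 and 20 counts in WT_SE 2 and WT_EE 1, 2, 4 and 5. Its counts were 30, 22, 28 and 35 in WT_SE 1, 3 and 5 and WT_EE 3. With on at more than 3 counts, 3 relatives parted the libraries, beside 1.61% of all tested genes. They were D10Wsu102e and Gm37570 (0 to 2 counts), both antisense and lower, and Gm48231 (2 to 7 counts), which was higher. Gm48231 matched on the same strand, and its rho with Gm43960 was 0.917. Gm37570 was under the floor in all libraries. Gm48231 had 3 counts in WT_SE 3 and WT_EE 5, which were on, and 3 in WT_EE 3, which was off. Both thus parted the libraries at the floor, where the order is not read. Fgd4, matched over 2107 bases at 91.6% identity, had 35 to 64 counts in all libraries. Between the environments, 11 of the 102 had an unadjusted p under 0.05, beside the 7.65% of all tested genes. The sharpest step between adjacent libraries in any tested relative was 2.11-fold, in Ces2b, and the median was 1.15-fold. Of the 102, 37 had fewer than 2 libraries above the floor and so could not show a step, and the median of the others was 1.21-fold.

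**Figure D4:**
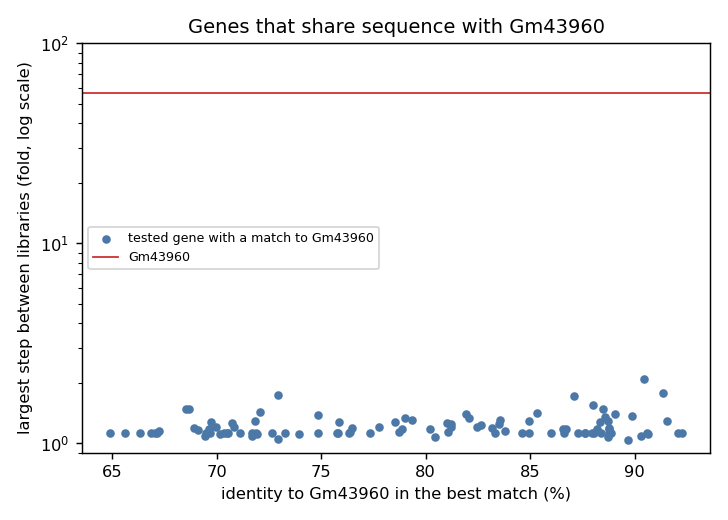
Each point is 1 of the 102 tested genes with a match of at least 500 bases to Gm43960 on either strand. It is placed by the identity of its best match in percent (horizontal) and its largest step between adjacent libraries in fold (vertical, log scale). The line marks the step of Gm43960, 56.8-fold, and no point lies above 2.11-fold, with 37 points from genes too low to show a step.

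How unusual such a step is was described over all tested genes. The CPM values of each gene, with values under the floor raised to it, were put in order, and the largest ratio between adjacent libraries with at least 2 libraries on each side was taken. The median over 17441 genes was 1.17-fold (1.21-fold without 4155 genes that had fewer than 2 libraries above the floor and could not show a step), 7 genes reached 5-fold, 3 reached 10-fold and 1 reached 20-fold. Gm43960 was first with 56.8-fold, between 415 counts in WT_EE 5 and 5 in WT_SE 3, with a 95% interval from counting error of 24.1 to 176. Grip2 was number 3 with 10.2-fold, between 357 counts in WT_EE 5 and 29 in WT_SE 2, with an interval of 7 to 15.5. Since the genes were chosen for this feature, their place in the order is a description, and the measure itself was chosen after the values were seen.

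The other genes with steep steps described here did not split the libraries exactly as either member did. Mptx1, a pentraxin of intestinal epithelium, stepped 16.3-fold, with 4 to 9 counts in WT_SE 1, 2 and 3 and WT_EE 1 and 137 to 252 in the others. Osr2 stepped 9.93-fold and Hoxb13 4.40-fold. Nrxn2, which encodes a neurexin that joins nerve cells at synapses, stepped 5.36-fold on chromosome 19, and its libraries came close to those of Gm43960: it had 82, 75, 54, 75 and 47 counts in the 5 libraries with Gm43960 and 6, 6 and 4 in WT_SE 1, 3 and 5. WT_EE 3 broke the match, with 77 counts of Nrxn2 and 2 of Gm43960. The noncoding gene Gm26792, also on chromosome 19, had 19, 22, 25 and 27 counts in WT_SE 2 and WT_EE 2, 4 and 5, and 0 to 4 in the others, among them WT_EE 1, which was on for Gm43960.

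**Figure D5:**
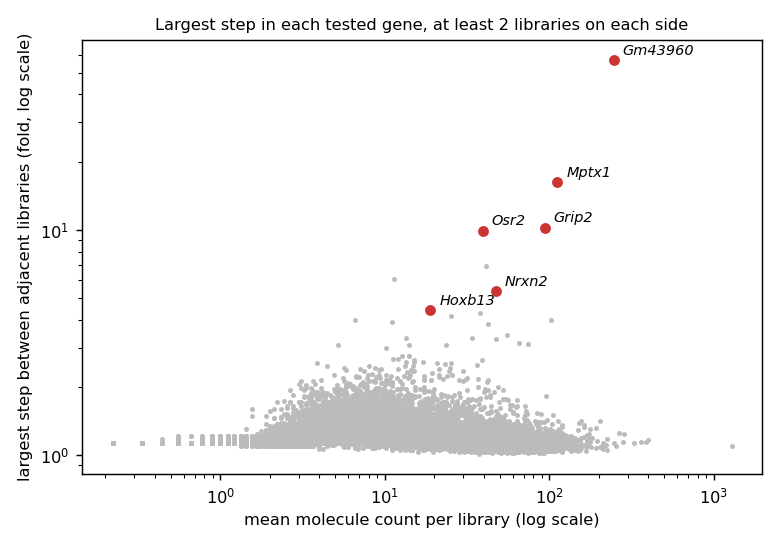
Each point is 1 of the 17441 tested genes, placed by its mean molecule count per library (horizontal, log scale) and its largest step between adjacent libraries in fold (vertical, log scale), with at least 2 libraries on each side. Gm43960 stands at 56.8-fold, Mptx1 at 16.3, Grip2 at 10.2 and Osr2 at 9.93, while the median gene is at 1.17.

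A stricter pattern, with 3 counts or fewer in at least 2 libraries, 10 or more in at least 2 and none between, was met by 8 genes. They were Nts, Gzma, Slc30a10, Nadsyn1, Cfd, 2010109I03Rik, Insl5 and, on chromosome 6, Sval1. Neither member met it, because of counts of 4 and 5 in low libraries. With off set at 5 counts or fewer, chosen after the values were seen, 71 genes met it, both members included. Sval1 had 3 and 0 counts in WT_SE 2 and WT_SE 3 and 14 to 91 in the others, so this chromosome 6 gene was low in a library where both members were on. The gut hormone genes Nts and Insl5 were off in WT_SE 5, WT_EE 2 and WT_EE 4, and in WT_SE 2 and WT_SE 3, again unlike either member.

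The genes whose order over the 9 libraries was most like that of Gm43960, among 10830 with a mean of at least 5 counts, were Mall (rho 0.967), Adgra3, Emsy, Gm38211 and Kmt2a (0.95 each), Arhgdia, Slc35g1 and Tamm41 (0.917 each) and Brd9 and Castor2 (0.90 each). Mall, a membrane protein of lipid rafts, had 71 to 121 counts, Kmt2a, a histone methyltransferase, 58 to 107, and Emsy 32 to 66. Castor2 and Gm38211 had 3 to 14 and 2 to 10 counts. Tamm41, a mitochondrial enzyme and the single gene of these on chromosome 6, had 15 to 25 counts and was among the chromosome 6 genes that parted the Gm43960 libraries in CPM at 10 or more counts. Of the 9 values of Gm43960 that set this order, 4 were at or close to the floor. With Pearson's r of log2 CPM in place of rho, 2 of the 10 genes were again among the first 10.

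For Grip2 the same measure gave Plk2 (0.967), Cyren, Ecm1 and Tmcc3 (0.95 each), Cd274, Cs, Ehbp1l1, Fbxo30 and Mga (0.933 each) and Adcyap1r1 (0.917). Cyren and Adcyap1r1, the receptor for the neuropeptide PACAP, lie on chromosome 6 and had 3 to 14 and 0 to 10 counts, and Cyren was among the genes that parted the Grip2 libraries at 10 or more counts. For Grip2, 6 of the 9 values were 0 to 5 counts, at or close to the floor, so that these ranks rest mainly on an order that is not read. Cs, the citrate synthase of mitochondria, had 49 to 125 counts, the lowest in WT_SE 3. By Pearson's r, led by Fbxo30 (0.936), 3 of the 10 were again among the first 10. All values rest on 9 libraries of unequal depth and have no test.

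Partners of Grip2 were compared between the environments. Of 38 genes of AMPA receptors, their auxiliary subunits, scaffolds and GRIP partners, 34 were counted and 32 tested, and 9 were at or under the floor in all libraries. With edgeR 0 of the 32 had an unadjusted p under 0.05 between the environments, and DESeq2 gave 0 as well, beside 7.65% of all tested genes with edgeR. The count with edgeR was 4 without WT_SE 5. The median log2 fold change was 0.10, against 0.01 over all tested genes. The receptor genes Gria1 and Gria2 had 0 to 3 counts, Gria4 had 0 to 5 and Gria3, the most abundant of them, 4 to 10. Of the auxiliary subunits, Cacng2, Cacng3, Cnih3 and Shisa9 had no count. The ephrin receptor genes Epha7, Ephb2 and Ephb3 had 5 to 47, 15 to 48 and 14 to 50 counts. Summed over the list, the level was 1857 to 2154 CPM, with Kif5b, the heavy chain of a transport motor, as the most abundant gene.

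Grip1, the closest relative, had 3, 2, 4 and 5 counts in WT_SE and 7, 7, 11, 3 and 10 in WT_EE, with no step at the libraries where Grip2 was high. Its log2 fold change was 0.93 (SE 0.46) with an adjusted p of 0.659. In this list Cspg4, a proteoglycan bound by GRIP1, was higher in all 5 libraries with at least 10 counts of Gm43960, at 17 to 23 counts against 4 to 14, a pattern that 1.02% of all tested genes had. Cacng7, a receptor subunit, parted the Grip2 libraries in CPM, but with 3, 4 and 3 counts in WT_SE 2, WT_EE 2 and WT_EE 5 and also 3 in WT_EE 1 and WT_EE 3 it was at the floor, where the order is not read. The scaffold genes Dlg1 and Sdcbp had 30 to 55 and 92 to 132 counts.

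Cell type markers were read to see whether a tissue component moved with the split. All 8 markers of colon epithelium were counted, with Muc2 the most abundant and a summed level of 2570 to 3659 CPM. Of the small intestine markers, Lct, Apoa4 and Si had no count and Fabp6 had 0 to 34, and of the pancreas markers 2 of 4 had a count, of 1 molecule each. No marker of the cell type lists given here parted the libraries of Gm43960 or of Grip2.

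Enteric neurons, the cells of the gut wall in which glutamate receptor scaffolds would be looked for, had 8 of 8 markers counted with Stmn2 the most abundant. Their summed level was 266, 482, 291 and 279 CPM in WT_SE 1, 2, 3 and 5, and 317, 495, 420, 464 and 231 CPM in WT_EE 1 to 5. It was highest in WT_EE 2, second highest in WT_SE 2 and lowest in WT_EE 5, where Grip2 had 442, 29 and 357 counts. Smooth muscle (5 of 5, led by Myh11) was highest in WT_EE 2 and WT_EE 4, at 2175 and 2190 CPM, and between 1222 and 1536 elsewhere. Grip2 had 442 and 5 counts in WT_EE 2 and WT_EE 4, and a link of its level with neuron or muscle content was not tested.

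Fat markers (4 of 4, led by Fabp4) summed to 577, 61.3, 200 and 82.0 CPM in WT_SE and 134, 244, 282, 164 and 99.5 CPM in WT_EE, and were highest in WT_SE 1, where both members were off. Interstitial cells of Cajal (2 of 2, led by Ano1) summed to 216 to 321 CPM. B cell markers (3 of 4, led by Ms4a1, with Cd79a at 0) summed to 33.9 and 25.1 CPM in WT_SE 1 and WT_SE 2 and to 0 to 4.63 in the others. T cell markers (3 of 3, led by Trac) were at 9.28 to 30.6 CPM and skeletal muscle markers (3 of 4, led by Ckm, with Myh4 at 0) at 10.8 to 43.3 CPM. Between the environments, the unadjusted limit was passed by 1 of 8 tested markers of epithelium, 1 of 4 of fat and 2 of 3 of B cells, all lower in WT_EE. It was passed by 1 of 5 of smooth muscle and 1 of 8 of neurons, both higher, beside 7.65% of all tested genes, and by 0 markers after adjustment. The part of tissue composition in the members' levels was not tested.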

How the data were processed

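The authors trimmed reads with fastp 0.20.0, aligned them with STAR to GRCm38.p6, counted them on genes with featureCounts 1.6.0 and collapsed molecular identifiers with UMI-tools, and the deposited whole-number molecule counts were used as they are. The labels give STAR 2.7.0f, and the paper another version. Positions and symbols came from GENCODE M21. A gene was tested if it reached 4 CPM in any library. Counts were normalized by TMM and tested in R 4.3.3 with edgeR 4.0.16 (quasi-likelihood F test, environment as the only term), with Benjamini-Hochberg adjustment over all tested genes. DESeq2 1.42.0 was an alternative. The quasi-likelihood form was the default of this edgeR version and that of the earlier results, and its newer form was added after seeing the data. Other steps used python 3.11.15, numpy 2.4.6, pandas 2.3.3, scipy 1.17.1, matplotlib 3.10.9 and blastn 2.17.0 (e-value limit 1e-20). Promoters are from RefSeq.

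The members and lists were chosen with earlier results of these data known. The genes named are the members, genes that overlap them, the 10 nearest tested genes on each side, a parent gene where one is named, the 10 genes most alike by Spearman's rho, the all-or-none genes, the AMPA receptor and scaffold list and the cell type markers. Nrxn2, Slc10a2, Osr2, Hoxb13, Mptx1, Gm26792, the other chromosome 6 genes that parted libraries, the sequence relatives, the promoter motifs, the step measure, on at 10 or more counts and off at 5 or fewer were chosen after the values were seen.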

Additional observations from a re-analysis of the deposited data

Results flagged for a closer look

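Values far from the others of their group were looked for in 86 groups, made up of the members and their nearest genes in each environment. Such a value was found in 11 groups. Chance flags about 1 in 20 groups, but the members were chosen for their split and single counts against zeros are marked automatically, so the number of groups is not read against chance. Both members had one in WT_SE mouse 2. Gm43960 was at 1069 CPM (384 counts) where the other WT_SE libraries were at 7.83 to 16.9 CPM, and Grip2 was at 80.8 CPM (29 counts) where the others were at 0 to 10.9 CPM.

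Among the genes near Gm43960, Gm43961 was at 13.5 CPM in WT_SE mouse 3 (4 counts, others 5.22 to 5.57 CPM) and Tmem106b at 107 CPM in WT_SE mouse 5 (39 counts, others 145 to 151 CPM). Near Grip2, WT_SE mouse 5 was apart for 5 genes. Slc6a6 was at 344 CPM (126 counts, others 298 to 301 CPM) and Fbln2 at 21.9 CPM (8 counts, others 6.76 to 8.35 CPM). Gm45218 was at 5.47 CPM, Gm44095 at 5.47 CPM and 4930590J08Rik at 2.73 CPM, from 1 or 2 counts where the others had 0. Gm44095 was also at 3.09 CPM in WT_EE mouse 4 and Gm15737 at 2.61 CPM in WT_SE mouse 1, each from 1 count where the others had 0. Both members were low in WT_SE mouse 5, and no cause was tested.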

How the results depend on the processing

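The 1334 genes with an unadjusted p under 0.05 became 643 with DESeq2, 1383 with the newer quasi-likelihood form, 688 with the library name ending as a term and 680 without both L3 libraries, and 899 to 1581 with 1 library left out. The 7 genes with an adjusted p under 0.05 became 143 without a filter, 0 with the filter in every library, 0 with DESeq2, 0 with the newer quasi-likelihood form, 0 with the ending as a term and 0 without both L3 libraries. With 1 library left out they ranged from 0 to 48 (48, 20, 2 and 1 without WT_EE 1, 3, 4 and 5, and 1, 35, 0 and 37 without WT_SE 1, 2, 3 and 5). With the mouse number as a block, 70 genes passed after adjustment and 1170 before it, but libraries with the same number were no more alike than others (correlations of -0.02, 0.03, 0.06 and 0.08), so the numbers do not pair. The log2 fold change of Gm43960 ran from 1.45 to 6.52 with 1 library left out (6.52 without WT_SE 2, 1.45 to 2.19 otherwise), and that of Grip2 from 3.14 to 6.48, with 2.91 and 4.70 in the block. Near Grip2, the 1 gene past the unadjusted limit became 2 without a filter and 1 to 2 with 1 library left out (2 without WT_EE 1, WT_EE 5, WT_SE 1 or WT_SE 2). Genes that parted the Grip2 libraries went from 0 to 1 within 5 Mb and to 2 within 5 Mb at 10 or more counts, and for Gm43960 within 5 Mb from 1 to 0 at 10 or more counts. On libraries of Grip2 went from 5 to 8 at 1 or more counts and 3 at 10 or more. Of the 10 genes most like each member, 2 and 3 were kept with Pearson's r, and 4 for Grip2 with a mean of at least 20 counts. The 8 all-or-none genes became 1 with off at 1 count or fewer, 1 with on at 20 or more, 71 with off at 5 or fewer and 6 to 14 with 1 library left out (14 without WT_EE 1, 13 without WT_SE 1 or WT_SE 5). In the AMPA receptor list, 0 genes became 1 with the filter in every library, 1 with the newer form, 2 in the block and 0 to 4 with 1 library left out (4 without WT_SE 5, 2 without WT_EE 3). The cause was not tested. Within 1 Mb of Gm43960 no gene was counted, so its comparisons at that distance gave no value under any setting.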
